A study of Mus musculus with 8 samples.

Results

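Transcripts of the CXCR3 and CXCR4 chemokine axes, together with the CXCR5, CXCR6 and CX3CR1 ligands that signal beside them, were followed in whole mouse lung after endotoxin with or without tangeretin. The 10 genes were taken by symbol: Cxcl9, Cxcl10, Cxcl11 and their receptor Cxcr3; Cxcl12 and its receptor Cxcr4; Cxcl13; Cxcl16; and Cx3cl1 with its receptor Cx3cr1. The symbols matched 9 of the 24584 genes in the deposited tables, all 9 passed the filter on low counts that left 15706 genes for testing, and Cxcl11 had no row. The RefSeq annotation of GRCm38.p6 lists mouse Cxcl11 as a transcribed pseudogene.

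The series held 8 lung RNA-seq samples in 2 groups of 4. Both groups received lipopolysaccharide (LPS) from Escherichia coli at 5 mg/kg by intraperitoneal injection, and the LPS + Tan group also received tangeretin, a citrus flavonoid, at 50 mg/kg by the same route 30 min before LPS. The animals were male ICR mice of 6 to 8 weeks, labelled as wild type, and lungs were taken 12 h after LPS. Because both groups carried LPS and no untreated lung was analysed here, the comparison addresses what tangeretin changed in the endotoxin-exposed lung and not what LPS itself induced. The labels do not say that the samples were separate animals, so p-values measure only the spread between these samples.

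CXCL9, CXCL10 and CXCL11 are interferon-inducible ligands that share the receptor CXCR3, found mainly on activated T cells and natural killer cells. CXCL12 is made by stromal and endothelial cells and acts through CXCR4, which holds haematopoietic cells in the bone marrow and guides leukocytes in tissue. CXCL13 draws CXCR5-bearing B cells, CXCL16 binds CXCR6 on T cells, and CX3CL1 (fractalkine) is a membrane-anchored ligand for CX3CR1 on patrolling monocytes, some macrophages and cytotoxic lymphocytes. Both transmembrane ligands, CXCL16 and CX3CL1, can be shed by the proteases ADAM10 and ADAM17.

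Read depth was even, with 38895654 to 39931970 counts per sample. Marker genes of epithelium, endothelium, fibroblasts and neutrophils were all detected in these whole-lung samples, and no marker with a row in the tables was at 0 in every sample (4 listed lymphocyte markers, Trbc1, Trbc2, Ighm and Ighd, had none). LPS + Tan replicate 4 stood apart from its group by its extreme values. It held the highest or the lowest value of the 8 samples for 40.4% of tested genes, compared with 15.3% to 31.8% for the other samples. The results on the members and the counts over the gene lists are therefore given with all samples and without LPS + Tan replicate 4, which was singled out after its values had been seen. Along the main axis of variation between samples (first principal component of log2 CPM, 26.2% of the variance), LPS + Tan replicate 4 lay within its group's range, at -15.7. There replicate 2 was the sample apart, at 26.6, with replicates 1 and 3 at -33.7 and -22.2. The files hold no independent check of the label of LPS + Tan replicate 4.

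The sequences just before the transcription starts of the interferon-inducible ligands are shown first, because Cxcl10 varied the most widely of the ligands between samples. Cxcl9 (chr5:92321331-92328079, minus strand) and Cxcl10 (chr5:92346638-92348889, minus strand) lie side by side on chromosome 5 of GRCm38, with Cxcl11 (chr5:92359544-92363296) next to them. The 250 bases upstream of each RefSeq start are given 5′ to 3′ on the gene's own strand, chr5:92348890-92349139 for Cxcl10 and chr5:92328080-92328329 for Cxcl9, and capitals mark the motif matches.
Cxcl10 upstream window: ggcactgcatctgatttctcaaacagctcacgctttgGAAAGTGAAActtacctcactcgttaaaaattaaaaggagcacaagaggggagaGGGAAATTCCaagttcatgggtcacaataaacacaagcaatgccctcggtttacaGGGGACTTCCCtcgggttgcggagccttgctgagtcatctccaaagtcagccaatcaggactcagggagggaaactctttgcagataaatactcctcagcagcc
Cxcl9 upstream window: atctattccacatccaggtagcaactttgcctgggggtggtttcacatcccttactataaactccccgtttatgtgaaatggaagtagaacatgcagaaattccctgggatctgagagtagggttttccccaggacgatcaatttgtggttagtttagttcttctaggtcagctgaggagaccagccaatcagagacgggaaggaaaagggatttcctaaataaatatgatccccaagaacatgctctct

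In the Cxcl10 window the first run of capitals is an interferon-stimulated response element (ISRE, searched as GAAA, any 2 bases, GAAA), 213 to 204 bases before the start. The other runs match the NF-κB consensus, at 159 to 150 bases and, as 2 overlapping matches, at 104 to 94 bases before the start. The RefSeq promoter table held a window for 8 of the 10 genes, the exceptions being Cxcl11 and Cxcl16. Searching both strands, the ISRE was found in 1 of these 8 windows and the NF-κB consensus in 1, both times Cxcl10. Among all 32851 windows of the same length, 2.98% held the ISRE and 7.25% the NF-κB consensus. These are matches of letters within a short window and say nothing about binding.

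In FPKM, which corrects for transcript length and so allows genes to be compared with each other, the CXCR3 ligands were on average the most abundant of these transcripts. Cxcl9 averaged 803 FPKM over the 8 samples, range 340 to 1083, and ranked 34 among all tested genes. It took between 0.0989% and 0.315% of all counts in a sample. Cxcl10 followed at 245 FPKM (range 83.9 to 468), then Cxcl16 at 88.9 (79.9 to 110) and Cxcl13 at 80.7 (41.4 to 133). Endothelial and stromal ligands were lower, with Cx3cl1 at 19.6 FPKM (11.6 to 30.0) and Cxcl12 at 14.6 (10.7 to 20.003). The receptors came last. Cxcr4 averaged 7.33 FPKM (5.27 to 13.1), Cx3cr1 averaged 0.884 (0.255 to 1.65) and Cxcr3 averaged 0.549 (0.298 to 1.08). The ranges of neighbours in this order overlapped except between Cxcl13 and Cx3cl1 and between Cxcr4 and Cx3cr1. Cxcl9 was above Cxcl10 in all 8 samples and Cxcl10 above Cxcl16 in 7 of 8. In LPS + Tan replicate 3, Cxcl10 at 83.9 FPKM was below Cxcl16 at 84.7 and Cxcl13 at 103. Cxcl16 was above Cxcl13 in 6 of 8 samples and Cx3cl1 above Cxcl12 in 5 of 8.

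Comparisons of single genes between groups used CPM, read counts scaled to library size with TMM factors, and edgeR's quasi-likelihood test over all 15706 genes. Summed levels of gene lists were scaled to library totals only. The TMM factors left out of those sums were 0.959 to 1.01 in LPS and 0.971 to 1.05 in LPS + Tan. Cxcl10, the most changeable ligand, stood at 283, 291, 454 and 345 CPM in LPS replicates 1 to 4 and at 106, 92.2, 87.6 and 530 CPM in LPS + Tan replicates 1 to 4. Thus 3 LPS + Tan samples lay far below every LPS sample and the fourth lay above all of them, so the groups overlapped. Group means were 343 ± 79.0 and 204 ± 218 CPM (SD, n = 4 each), a log2 fold change of -0.75 ± 0.55 (SE) with an edgeR adjusted p of 0.936. The exact two-sided permutation test over 70 arrangements gave p = 0.143, where the smallest value the design allows is 0.0286.

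Without LPS + Tan replicate 4, the level of Cxcl10 in the other LPS + Tan samples averaged 95.2 ± 9.46 CPM (SD, n = 3). The log2 fold change was then -1.85 ± 0.17 (SE), 3.61-fold lower than LPS, with an edgeR adjusted p of 0.0456. In that fit Cxcl10 ranked 1 by p of 15932 genes and was the 1 gene past the adjusted threshold. LPS + Tan replicate 4 held 5.57 times the mean of the other LPS + Tan samples and 1.55 times the LPS mean. Leaving out any of the other 7 samples kept Cxcl10 lower in LPS + Tan, with log2 fold changes from -0.83 to -0.50 and adjusted p from 0.810 to 0.9999. With all 8 samples, limma-voom and limma on log2(FPKM + 1) gave larger fold changes for Cxcl10, -1.21 (unadjusted p = 0.0429) and -1.16 (unadjusted p = 0.0478), and adjusted p stayed at 0.904 and 0.817.

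Cxcl10 lies inside Art3 (chr5:92331799-92414628), an ADP-ribosyltransferase gene. Art3 had 1533 to 2042 counts per sample, against 3605 to 20409 for Cxcl10. Whether strand was used in counting is not given in the sources used here, so reads of the overlapping parts cannot be assigned with certainty.

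Cxcl9, the second ligand of CXCR3, split the samples in a similar way. Its level was 2105, 2775, 3142 and 3173 CPM in the LPS samples and 960, 1979, 1462 and 3205 CPM in the LPS + Tan samples. Again replicates 1 to 3 of LPS + Tan were below every LPS sample and replicate 4 was the highest of all. The means were 2799 ± 497 and 1902 ± 964 CPM (SD, n = 4 each), with a log2 fold change of -0.56 ± 0.32 (SE), an edgeR adjusted p of 0.926 and an exact permutation p of 0.171. Without LPS + Tan replicate 4 the log2 fold change was -0.93 ± 0.25 (SE), with an unadjusted edgeR p of 0.00451 and an adjusted p of 0.308. In the other direction, it was -0.34 without LPS + Tan replicate 1.

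The balance of the ligands also varied between samples. The ratio of Cxcl9 to Cxcl10 in FPKM was 2.82, 3.61, 2.62 and 3.49 in the LPS samples and 3.44, 8.14, 6.32 and 2.29 in the LPS + Tan samples. In LPS + Tan replicates 2 and 3 the ratio was above that of every LPS sample, in replicate 1 it was within their range, and in replicate 4 it was below them.

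Cxcr3, the receptor, was scarce, with 278 counts over the 8 samples. It measured 0.793, 0.709, 0.679 and 0.648 CPM in the LPS samples and 0.935, 1.73, 1.05 and 0.494 CPM in the LPS + Tan samples. Here the order was inverted, with replicates 1 to 3 of LPS + Tan above every LPS sample and replicate 4 below them. The means were 0.707 ± 0.0622 and 1.05 ± 0.511 CPM (SD, n = 4 each), and the log2 fold change was 0.57 ± 0.36 (SE), with an edgeR adjusted p of 0.928 and an exact permutation p of 0.314. Without LPS + Tan replicate 4 it was 0.80 ± 0.30 (SE), with an unadjusted edgeR p of 0.0268 and an adjusted p of 0.466. Leaving out LPS + Tan replicate 2, the sample with the most Cxcr3, brought it to 0.22. In whole lung, fewer cells of a type and less RNA per cell cannot be told apart. The summed level of the 9 T cell markers tested was 25.2 to 33.4 CPM in LPS, 33.1 to 38.4 in LPS + Tan replicates 1 to 3 and 22.8 in replicate 4, and none of the 9 passed an unadjusted p below 0.05 with or without that sample. The 11 natural killer markers summed to 178 to 415 CPM in LPS and 142 to 430 in LPS + Tan, with the lowest value in LPS + Tan replicate 1 and none past that threshold with or without replicate 4. The part of either cell type in the Cxcr3 values was not tested.

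**Figure D1:**
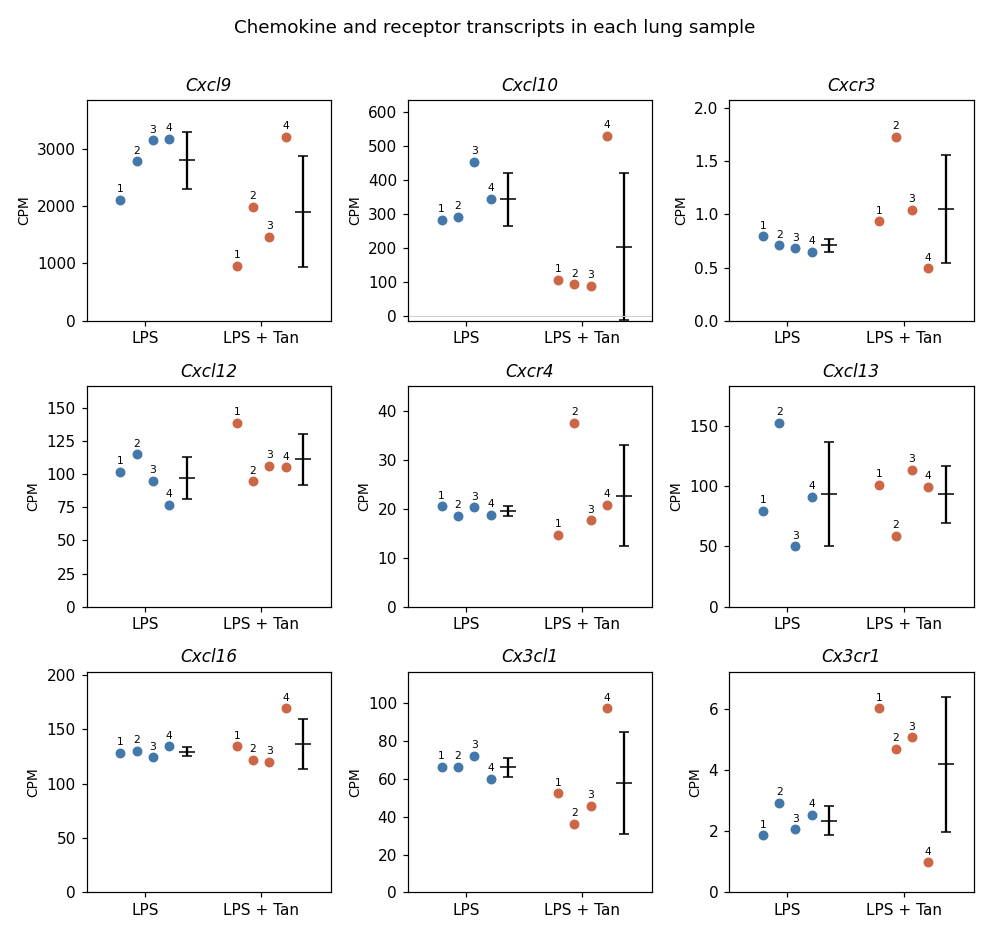
CPM of the 9 detected genes in each sample (numbered points, blue for LPS and orange for LPS + Tan), with the group mean ± SD (n = 4) in black beside them. Replicate 4 of LPS + Tan had the highest Cxcl9, Cxcl10, Cxcl16 and Cx3cl1 and the lowest Cxcr3 and Cx3cr1 of the 8 samples, and every gene's groups overlapped.

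The interferon-gamma pathway, which can induce CXCR3 ligands, was examined around them. Of 27 interferon-gamma target genes, 25 had a log2 fold change below 0, compared with 48.2% of all tested genes, and the list's median was -0.42 beside 0.0070 over all tested genes (-0.24 without LPS + Tan replicate 1). Unadjusted p was below 0.05 for 2 of the 27, both lower, against 2.25% of all tested genes called lower. They were Gbp4, a guanylate-binding protein, with a log2 fold change of -1.24 ± 0.38 (SE, edgeR adjusted p = 0.924), and Nos2, the inducible nitric oxide synthase, at -0.70 ± 0.26 (SE, edgeR adjusted p = 0.924). Gbp7, with the next lowest p, was at -0.57 (edgeR unadjusted p = 0.0711).

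The targets split the samples as Cxcl10 did, though not in the same order within groups. Their summed level was 17565 to 22377 CPM in the LPS samples, 9024, 12087 and 11790 CPM in LPS + Tan replicates 1 to 3 and 25602 CPM in replicate 4. Replicate 4 had the highest value of the 8 samples for 23 of the 27 genes, as it did for 20.2% of all tested genes. Without it all 27 were below 0, 26 at an unadjusted edgeR p below 0.05 against a background of 4.56% called lower in that fit, and the median moved to -1.001. The gene not past that threshold was Icam1, an adhesion molecule, at -0.12 (edgeR unadjusted p = 0.296). No target passed an adjusted p of 0.05 in either fit. Tgtp1 and Tgtp2 are near-identical copies whose reads could be split by the counting.

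**Figure D2:**
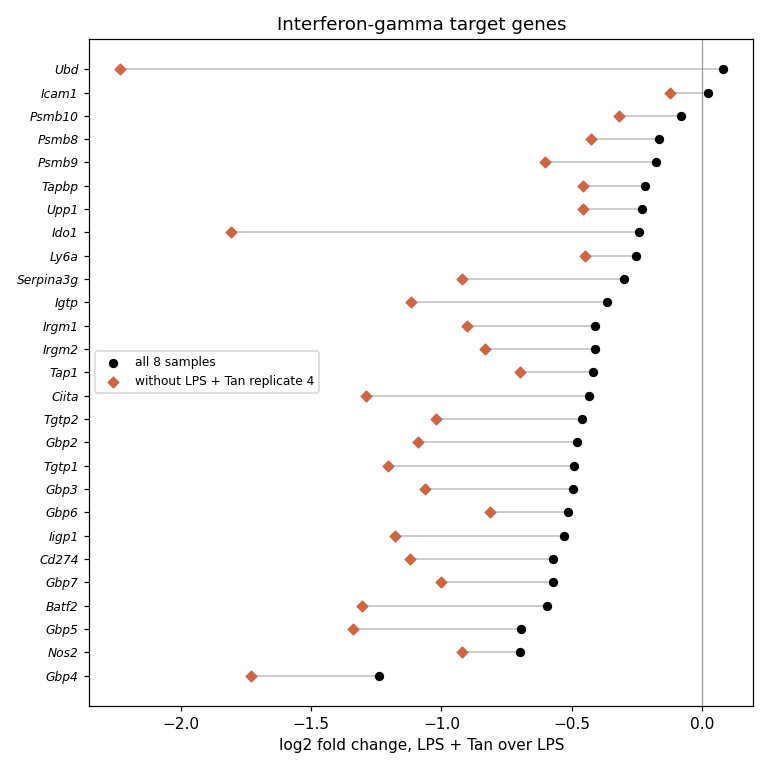
Log2 fold change (LPS + Tan over LPS) of the 27 interferon-gamma target genes with all 8 samples (black points) and without LPS + Tan replicate 4 (orange diamonds), joined by a grey line for each gene. Each gene lay further to the left without that sample, and the list's median went from -0.42 to -1.001.

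Upstream of the targets, 16 of 23 tested genes of the interferon input (cytokines, receptors, JAKs, STATs and IRFs) had a log2 fold change below 0, with a median of -0.10 (-0.171 without LPS + Tan replicate 4, -0.054 without replicate 1 and -0.056 without replicate 3). At unadjusted p below 0.05, 0 were lower and 1 was higher, against 2.87% of all tested genes called higher. That gene was Ticam2, an adaptor of the LPS receptor TLR4, at 0.53 ± 0.21 (SE, edgeR adjusted p = 0.924). Stat2 and Jak2, with the next lowest p, were at -0.24 and -0.21, with unadjusted edgeR p of 0.0687 and 0.0746. Their log2 fold changes (Ticam2, Stat2 and Jak2) were 0.67, -0.35 and -0.30 without LPS + Tan replicate 4.

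Ifng, chosen after its values were seen because it encodes interferon-gamma, measured 5.70, 3.55, 6.06 and 5.68 CPM in LPS and 0.959, 1.42, 1.63 and 13.9 CPM in LPS + Tan. As with Cxcl10, LPS + Tan replicates 1 to 3 lay below every LPS sample and replicate 4 above them, while the order within groups differed. Its log2 fold change was -0.23 ± 0.74 (SE, edgeR adjusted p = 0.989) with all samples and -1.97 ± 0.27 (SE, edgeR adjusted p = 0.0782) without replicate 4. Irf1, an interferon-induced transcription factor also chosen after its values were seen, measured 664 to 735 CPM in LPS, 289 to 415 in LPS + Tan replicates 1 to 3 and 990 in replicate 4. Ifnb1 and Il12b were too low to test. Without replicate 4, 8 genes of this list were lower and 1 higher at unadjusted p below 0.05, against 4.56% and 4.78% of all genes in that fit, and 0 passed after adjustment.

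On the CX3CR1 axis, ligand and receptor split the samples in opposite directions, though their orders within groups were not exact inverses. Cx3cl1, made largely by endothelium and epithelium, measured 66.3, 66.4, 72.1 and 59.9 CPM in the LPS samples and 52.3, 36.3, 45.9 and 97.3 CPM in the LPS + Tan samples. As with the CXCR3 ligands, LPS + Tan replicates 1 to 3 lay below every LPS sample and replicate 4 above them. The means were 66.2 ± 4.98 and 57.9 ± 27.0 CPM (SD, n = 4 each), and the log2 fold change was -0.19 ± 0.25 (SE), with an edgeR adjusted p of 0.978 and an exact permutation p of 0.429. Without replicate 4 it was -0.56 ± 0.12 (SE), with an unadjusted edgeR p of 0.0015 and an adjusted p of 0.224. It shrank to -0.023 without LPS + Tan replicate 2 and to -0.097 without replicate 3.

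Cx3cr1 had 1.87, 2.94, 2.06 and 2.54 CPM in the LPS samples and 6.03, 4.70, 5.08 and 0.988 CPM in the LPS + Tan samples. LPS + Tan replicates 1 to 3 were above every LPS sample and replicate 4 was below them all. The means were 2.35 ± 0.482 and 4.20 ± 2.21 CPM (SD, n = 4 each), the log2 fold change was 0.84 ± 0.44 (SE), and the edgeR adjusted p was 0.924, with an exact permutation p of 0.457. DESeq2 gave 0.83 at an unadjusted p of 0.0474 and an adjusted p of 0.789, whereas limma-voom gave 0.59 at an unadjusted p of 0.294 and limma on log2(FPKM + 1) 0.36 at an unadjusted p of 0.124. Without replicate 4 the log2 fold change was 1.16 ± 0.20 (SE), with an unadjusted edgeR p of 0.000306 and an adjusted p of 0.116. The ratio of Cx3cl1 to Cx3cr1 in FPKM therefore separated the samples widely, at 42.4, 27.0, 41.7 and 28.1 in LPS, 10.4, 9.20 and 10.8 in LPS + Tan replicates 1 to 3 and 118 in replicate 4.

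Markers of patrolling monocytes, which carry CX3CR1, were in part ordered like the receptor. Their summed level was 1104 to 1317 CPM in LPS, 1862, 1418 and 1776 CPM in LPS + Tan replicates 1 to 3 and 1150 CPM in replicate 4, which for the sum, unlike for Cx3cr1, was inside the LPS range. Of the 9 tested, 8 had a log2 fold change above 0 and 0 had an unadjusted p below 0.05, with a median of 0.22, and without replicate 4 there was 1 higher, against 4.78% of genes in that fit. Ear2 went against the receptor in replicate 4, at 105 CPM beside an LPS mean of 54.1 CPM. Most of the sum was Ace, which endothelium also expresses, at 655 ± 95.8 CPM in LPS and 873 ± 295 in LPS + Tan (SD, n = 4 each). Endothelial markers summed to 3732 to 4512 CPM in LPS and 4326 to 4824 in LPS + Tan, and 2 of 11 were higher at unadjusted p below 0.05, against 2.87% of all tested genes, with 2 also without replicate 4, against 4.78%. Interstitial macrophage markers summed to 2224 to 3512 and 1635 to 2638 CPM, mostly Lyve1 (2330 and 1637 CPM on average), which lymphatic endothelium also expresses. Of the 10, 2 were higher at that threshold (3 without replicate 4, against 4.78%), and the list's median log2 fold change was 0.17. The part of these cell types in the Cx3cr1 values was not tested.

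**Figure D3:**
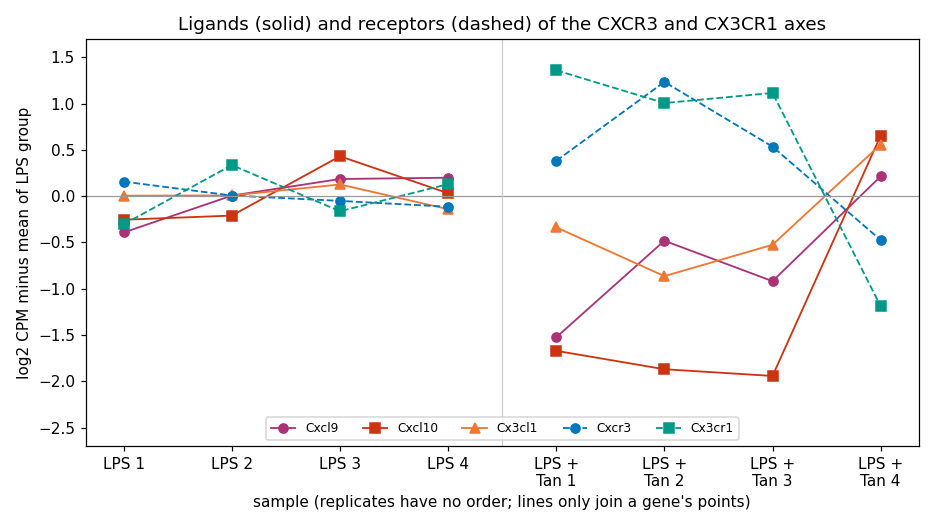
Log2 CPM of the CXCR3 and CX3CR1 ligands (solid lines) and receptors (dashed lines) in each sample, minus the mean of the 4 LPS samples. In LPS + Tan replicates 1 to 3 the ligands lay below 0 and the receptors above it, and in replicate 4 both signs were inverted, with Cxcl10 at 0.65 and Cx3cr1 at -1.19.

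The CXCR4 axis showed no such pattern. Cxcl12 measured 102, 115, 95.0 and 76.9 CPM in the LPS samples and 139, 94.7, 107 and 105 CPM in the LPS + Tan samples. The groups overlapped throughout and LPS + Tan replicate 4 lay in the middle of its group. The means were 97.1 ± 15.9 and 111 ± 19.2 CPM (SD, n = 4 each), with a log2 fold change of 0.20 ± 0.15 (SE), an edgeR adjusted p of 0.936 and an exact permutation p of 0.343. Without replicate 4 the log2 fold change was 0.22 (edgeR unadjusted p = 0.199), without LPS + Tan replicate 1 it was 0.071 and without LPS replicate 4 it was 0.10.

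Cxcr4 measured 20.5, 18.5, 20.3 and 18.8 CPM in the LPS samples and 14.7, 37.7, 17.6 and 20.8 CPM in the LPS + Tan samples. The high value was LPS + Tan replicate 2, and the other LPS + Tan samples lay on both sides of the narrow LPS range. The log2 fold change was 0.22 ± 0.25 (SE), with an edgeR adjusted p of 0.968 and an exact permutation p of 0.857. It turned to -0.14 when LPS + Tan replicate 2 was left out, and was 0.26 without replicate 4. Among 11 regulators of Cxcl12 and Cxcr4 (hypoxia, glucocorticoid and lymphoid factors), 0 had an unadjusted p below 0.05, 7 were below 0 and the median was -0.11, and 1 was lower at that threshold without LPS + Tan replicate 4, against 4.56% of genes in that fit. The median was -0.034 without LPS + Tan replicate 3 and -0.225 without replicate 2. The lowest p values belonged to Fkbp5, a glucocorticoid-induced chaperone (log2 fold change -0.30, edgeR unadjusted p = 0.0650), Hif1a, the hypoxia factor (-0.58, edgeR unadjusted p = 0.102) and Klf2, an endothelial factor (-0.22, edgeR unadjusted p = 0.156).

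Cxcl13, the B cell attractant, varied more within the LPS group than between the group means. It measured 79.6, 153, 50.1 and 91.3 CPM in the LPS samples and 101, 58.8, 113 and 99.6 CPM in the LPS + Tan samples. Neither group was higher, with means of 93.5 ± 43.3 and 93.3 ± 23.8 CPM (SD, n = 4 each), a log2 fold change of -0.0042 ± 0.31 (SE) and an edgeR adjusted p of 0.999. The sign changed with the scaling and with the samples used, from -0.21 without LPS replicate 3 to 0.33 without LPS replicate 2, and it was -0.04 without LPS + Tan replicate 4. Its receptor Cxcr5 was at 2.07 ± 0.355 and 2.0 ± 0.764 CPM (SD, n = 4 each; log2 fold change -0.05, edgeR adjusted p = 0.997), and the fold change turned to 0.14 without LPS + Tan replicate 4. B cell markers summed to 23.3 to 39.3 CPM in LPS and 20.97 to 32.1 in LPS + Tan, with none of 8 at unadjusted p below 0.05 with or without LPS + Tan replicate 4. Among 10 tested genes of the lymphoid chemokine list, 1 was lower at unadjusted p below 0.05, against 2.25% of all tested genes, and 0 were higher, and without LPS + Tan replicate 4 there were 2 lower, against 4.56%. With all samples it was Tnfsf13b, the B cell survival factor BAFF, with a log2 fold change of -0.70 ± 0.24 (SE, edgeR unadjusted p = 0.0147, adjusted p = 0.924). Relb and Map3k14, of the non-canonical NF-κB pathway, were at -0.15 and -0.25 (edgeR unadjusted p = 0.0652 and 0.102).

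Cxcl16 was the steadiest ligand in LPS. It measured 128, 130, 124 and 134 CPM in the LPS samples and 135, 122, 120 and 169 CPM in the LPS + Tan samples. Only LPS + Tan replicate 4 lay far from the other samples. The means were 129 ± 4.10 and 136 ± 22.8 CPM (SD, n = 4 each), with a log2 fold change of 0.08 ± 0.11 (SE), an edgeR adjusted p of 0.978 and an exact permutation p of 0.8, and the fold change turned to -0.04 without replicate 4. Its receptor Cxcr6 was at 3.21 ± 0.363 and 3.32 ± 1.19 CPM (SD, n = 4 each; log2 fold change 0.05, edgeR adjusted p = 0.997), and the fold change turned to -0.23 without LPS + Tan replicate 4. The upper-coordinate part of Cxcl16 (chr11:70454389-70459984) overlaps the lower-coordinate part of Zmynd15 (chr11:70459433-70466204). Zmynd15 had 252 to 560 counts per sample against 4762 to 6515 for Cxcl16.

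Across the 9 genes, 4 had a log2 fold change below 0 and 5 above, and the median was 0.08. At unadjusted p below 0.05, 0 of 9 were called, against 5.12% of all tested genes. By the study's rule for differentially expressed genes (unadjusted p below 0.05 and a log2 fold change beyond 1 in either direction), 0 of 9 were called, against 0.649%. At an adjusted p below 0.05 there were also 0, as in 0% of all tested genes by edgeR's quasi-likelihood test, where 804 genes had an unadjusted p below 0.05. DESeq2 called 35 genes and edgeR's likelihood ratio test 23 at an adjusted p below 0.05. The groups were free of overlap in CPM for 0 of 9 genes, against 2.73%.

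Without LPS + Tan replicate 4, 5 of the 9 had an unadjusted edgeR p below 0.05, against 9.34% of genes in that fit. Cxcl9, Cxcl10 and Cx3cl1 were lower and Cxcr3 and Cx3cr1 higher, the latter direction against a background of 4.78%. The study's rule then held for 2, Cxcl10 and Cx3cr1, against 1.14%, and an adjusted p below 0.05 for Cxcl10 alone, against 0.00628%. The groups no longer overlapped for the same 5 genes, against 9.21%. The median over the 9 moved to -0.04. Since that sample was the farthest from its group for Cxcl9, Cxcl10, Cx3cl1 and Cx3cr1, leaving it out narrowed the spread of the same values that were tested, and no independent samples were at hand for the comparison. What set the sample apart was not tested.

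**Figure D4:**
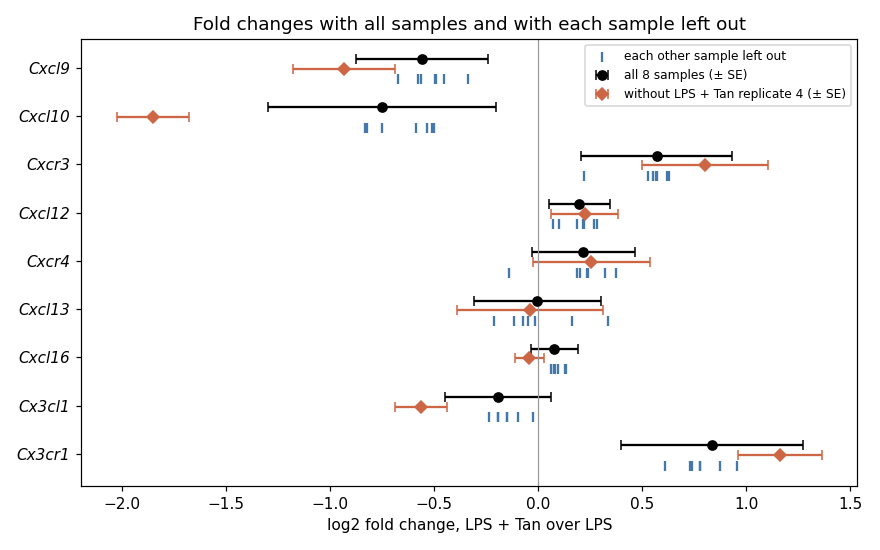
Log2 fold change of each gene (LPS + Tan over LPS) with all 8 samples (black, ± SE), without LPS + Tan replicate 4 (orange, ± SE) and with each of the other 7 samples left out in turn (blue ticks, no error shown). The orange value of Cxcl10, -1.85, lies outside the range of its blue ticks, -0.83 to -0.50, while those of Cxcl12, Cxcr4 and Cxcl13 lie within theirs.

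The spread itself differed between genes. The SD of log2 CPM was larger in LPS + Tan than in LPS for 7 of the 9 genes, all but Cxcl12 and Cxcl13, as it was for 64.9% of all tested genes. Without LPS + Tan replicate 4 it was larger for 6 of the 9, and for 52.0% of all genes.

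Relations between genes over the 8 samples were computed for 36 pairs. At an adjusted exact permutation p below 0.05 there were 6 pairs by Pearson r, 4 by Spearman rho and 3 by both, pairs with Cxcl10 or Cx3cr1 included. Because Cxcl10 lay in separate runs of samples (87.6 to 106 and 283 to 530 CPM), as did Cx3cr1, no pooled correlation value is given for either. Cx3cl1, Cxcl9 and Cxcr3 had narrower gaps, but LPS + Tan replicates 1 to 3 and replicate 4 again lay on opposite sides of the LPS samples. The values below therefore cannot be told apart from that split, and the permutations ignored the groups. The log2 CPM of Cx3cl1 and Cxcr3 were inversely related, with r = -0.95 (exact permutation p = 0.00062, Benjamini-Hochberg adjusted 0.00744). Their Spearman rho was -0.86 (exact permutation p = 0.0107, adjusted 0.0771). The r was -0.84 without LPS + Tan replicates 2 and 4, the samples with the most and the least Cxcr3, -0.94 with group means removed and -0.94 without replicate 4 of LPS + Tan. Cxcl9 and Cxcr3 gave r = -0.57 (exact permutation p = 0.144, adjusted 0.328) and rho = -0.90 (exact permutation p = 0.0046, adjusted 0.0411), and r = -0.83 without LPS + Tan replicates 1 and 3, -0.44 with group means removed and -0.48 without LPS + Tan replicate 4. All values within a sample share one library.

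**Figure D5:**
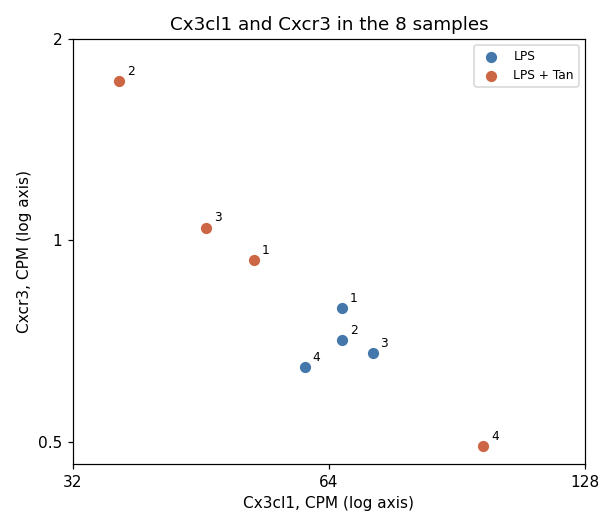
Cxcr3 against Cx3cl1 in CPM, both on log axes, for the 8 samples (blue LPS, orange LPS + Tan, numbered by replicate). The LPS samples sit together at 59.9 to 72.1 CPM of Cx3cl1, LPS + Tan replicates 1 to 3 lie to their upper left and replicate 4 at the lower right.

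A list of axis partners held other receptors, scavengers, sheddases and processing enzymes together with further ligands such as Pf4, Mif and Ppbp. Of 17 tested, 3 were lower at unadjusted p below 0.05, against 2.25% of all tested genes, and 0 higher, with a median of -0.05 (-0.164 without LPS + Tan replicate 2, -0.126 without replicate 4 and -0.014 without replicate 3), and without LPS + Tan replicate 4 there were 2 lower, against 4.56%. The 3 were ligands and a protease inhibitor, not receptors, scavengers or enzymes. Ppbp, a platelet-derived CXC chemokine precursor whose product acts on CXCR2, was at 9.74 ± 1.95 and 6.09 ± 1.29 CPM (SD, n = 4 each; log2 fold change -0.68, edgeR unadjusted p = 0.00610, adjusted p = 0.922). Cxcl14, an epithelial chemokine that binds CXCR4, was at 178 ± 142 and 82.0 ± 20.1 CPM (log2 fold change -1.12, edgeR unadjusted p = 0.0428), its LPS mean resting on replicates 2 and 3. Cxcl14 was at -0.98 without LPS + Tan replicate 4 and no longer past that threshold (edgeR unadjusted p = 0.108). Timp3, an inhibitor of metalloproteases including ADAM17, had a log2 fold change of -0.35 (edgeR unadjusted p = 0.0484). The sheddases differed by less than their larger group SD, Adam10 at 260 ± 25.5 and 253 ± 6.73 CPM and Adam17 at 162 ± 5.99 and 169 ± 21.7 CPM (SD, n = 4 each). Dpp4, which truncates several of these chemokines, was at 36.4 ± 2.80 and 37.4 ± 3.84 CPM. Ackr3, the scavenger receptor for CXCL12, was at 241 ± 58.3 and 169 ± 77.8 CPM (log2 fold change -0.51, edgeR adjusted p = 0.926, and -0.54 without LPS + Tan replicate 4).

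Of 29 tested genes of chemokine receptor signalling, 1 was higher, against 2.87% of all tested genes, and 0 lower at unadjusted p below 0.05, with a median of 0.10 (-0.0013 without LPS + Tan replicate 1 and 0.056 without LPS replicate 4). It was Tiam1, a Rac exchange factor, at 0.69 ± 0.29 (SE, edgeR unadjusted p = 0.0361, adjusted p = 0.924). Rgs1 and Rgs2, which shorten G protein signalling, were at -0.55 and -0.30 (edgeR unadjusted p = 0.0608 and 0.0764). Without LPS + Tan replicate 4, 6 genes of this list were higher and 3 lower at unadjusted p below 0.05, against 4.78% and 4.56% of all genes in that fit, and 0 passed after adjustment.

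Markers of the remaining cell types were summed in the same way. Neutrophil markers summed to 4725 to 6244 CPM in LPS and 4486 to 6447 in LPS + Tan, alveolar macrophage markers to 1306 to 2404 and 1452 to 2360, and alveolar and airway epithelial markers to 20867 to 29026 and 20631 to 29436. The stromal lists were as close, with fibroblast markers at 3362 to 4041 and 3413 to 4072 CPM, pericyte and smooth muscle markers at 432 to 573 and 405 to 601, mesothelial markers at 118 to 177 and 140 to 185, and lymphatic endothelial markers at 226 to 284 and 220 to 246. None of the 61 tested genes on these 7 lists had an unadjusted p below 0.05 with all samples, and without LPS + Tan replicate 4 there were 2 epithelial markers lower and 2 pericyte and smooth muscle markers higher, against 4.56% and 4.78% of all genes in that fit. Erythroid markers summed to 1439 to 3313 and 1367 to 2232 CPM with all 7 below 0 and none past that threshold (1 lower without replicate 4, against 4.56%). Platelet markers summed to 31.6 to 37.1 and 20.8 to 38.4 CPM, with 1 of 6, Ppbp, lower in both fits. The shares of all genes called lower were 2.25% with all samples and 4.56% without replicate 4.

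The genes whose profile over the 8 samples was most like a member's were found by Pearson r of log2 CPM over 15697 genes, as a description. Those ranked first were U2af1, Ppa1 and Anapc4 for Cxcl10 and Map3k1, Emsy and Tmem245 for Cx3cr1, with no r given because it would measure the same split between runs of samples. For Cxcl16 they were Atp5l (0.99), Mrps7 and Cox7a2l (0.98 each), for Cxcl12 Nsfl1c (0.97), Soat1 and Pomk (0.96 each), and for Cxcl13 Fbxo48 (0.99), Tulp1 (0.96) and Pde4c (0.95). Cxcl16, Atp5l, Mrps7 and Cox7a2l were all highest in LPS + Tan replicate 4. Atp5l was at 94.6 CPM there, against 66.2 to 75.6 in the other samples. The r for Cxcl16 cannot be told apart from the place of that sample. Ppa1, an inorganic pyrophosphatase, was at 46.6 to 53.5 CPM in LPS, 35.4 to 37.4 in LPS + Tan replicates 1 to 3 and 59.0 in replicate 4, the split seen for Cxcl10 with a far smaller range.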

How the data were processed

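The authors deposited a table of raw read counts per gene and a table of FPKM values, which correct counts for library size and transcript length, for lungs of 4 LPS and 4 LPS + Tan samples. The submitters' processing notes name GRCm38 (mm10). For the aligner, counter and strand setting, the sources used here give nothing, and the labels and the study's methods name different RNA extraction and library kits. Columns were assigned to groups by their labels.

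Counts were tested with edgeR 4.0.16 (R 4.3.3; filterByExpr, TMM, quasi-likelihood test, no covariate), with Benjamini-Hochberg adjustment over all tested genes. Single genes were also tested by an exact two-sided permutation of mean log2 CPM (prior count 2). FPKM was used to compare genes with each other. In 19 alternatives, DESeq2 1.42.0, limma 3.58.1, other scalings and filters, a replicate block and the omission of each sample were tried.

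The members and the 6 pathway and 15 marker lists were chosen with earlier results of these data known. Named genes are all members, every pathway list gene at unadjusted p below 0.05 (or the 3 lowest p), and the 3 genes most like each of 5 members. Receptors, enzymes, list genes and markers named beside these were chosen after their values were seen. Loci and upstream windows are RefSeq's for GRCm38.p6. A further motif that was searched is not reported here.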

Additional observations from a re-analysis of the deposited data

Results flagged for a closer look

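In 2 of 18 groups checked (9 genes in 2 groups of 4), a sample lay farther from the others than Dixon's 95% critical value allows, where chance gives about 0.9 such groups. Both were LPS + Tan replicate 4. For Cxcl10 its gap to the nearest sample was 0.895 of the group's whole range in log2 CPM, at 530 CPM against 87.6 to 106 CPM in the other LPS + Tan samples. For Cx3cr1 the gap was 0.861 of the range, at 0.988 CPM against 4.70 to 6.03 CPM.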

How the results depend on the processing

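Cxcl9, Cxcl10 and Cx3cl1 stayed lower and Cxcl12 and Cx3cr1 higher in LPS + Tan in all 19 alternatives, and Cxcr3 stayed higher in the 18 that kept it (a filter of 1 CPM in 4 samples removed it). Adjusted p ranged from 0.0456 to 0.9999 for Cxcl10 and from 0.116 to 0.9999 for Cx3cr1, and DESeq2 gave no p for Cxcl10. Signs turned for Cxcr4 without LPS + Tan replicate 2 (-0.14, range over omitted samples -0.14 to 0.38), for Cxcl16 without LPS + Tan replicate 4 (-0.043, range -0.043 to 0.13) and for Cxcl13, whose main value was -0.0042: limma-voom 0.067, upper-quartile scaling 0.0028, library totals 0.032, limma on log2 FPKM 0.11 with a pseudocount of 1 or 0.1, the replicate block 0.082, without LPS replicate 2 0.33 and without LPS + Tan replicate 2 0.16 (range -0.21 to 0.33). The cause was not tested.

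By the study's rule, 55 genes were higher and 47 lower. DESeq2 gave 113 and 111, no count filter 220 and 198, 1 CPM in 4 samples 18 and 23, limma on log2 FPKM 5 and 9 with a pseudocount of 1 but 19 and 21 with 0.1, and omitting each sample 37 to 113 and 38 to 125, the most without LPS + Tan replicate 2 (replicate 4: 80 and 102; LPS replicate 1: 84 and 71; LPS replicate 4: 88 and 52). At an adjusted p below 0.05, DESeq2 called 35, the likelihood ratio test 23 and the omission of each sample 0 to 1. Members at unadjusted p below 0.05 were 0 in the main analysis, 1 with DESeq2 (Cx3cr1), 1 each with limma-voom and limma on either FPKM scale (Cxcl10), and 0 to 5 on omitting each sample. The share of all genes at that threshold was taken only in the main fit (5.12%) and without LPS + Tan replicate 4 (9.34%). The other counts therefore have no background to be read against. By the study's rule the members called were 1 with limma-voom and on either FPKM scale and 0 to 2 on omitting each sample. Of all 15706 genes, limma-voom called 44 higher and 61 lower by that rule.

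Replicate numbers did not pair the samples: deviations from group means correlated at 0.12, -0.03, -0.15 and 0.02 between samples of the same number. With the replicate block 2 members (Cxcl9 and Cxcl10) had an unadjusted p below 0.05, a threshold at which the share of all genes was not taken in that fit. The study's rule held for 1 member, Cxcl10 at -1.25, where 43 genes were higher and 55 lower of all 15706.

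With 4 samples a group, 278 Cxcr3 counts in all and 1043 Cx3cr1 counts, counting error adds to the spread of both receptors. The medians of the 6 pathway lists kept their sign under library totals and on omitting each sample, except that of receptor signalling, -0.0013 without LPS + Tan replicate 1. Marker list medians were compared only without LPS + Tan replicate 4, where that of neutrophils turned from 0.04 to -0.0040.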
